A study of Mus musculus with 12 samples.

Results

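Toll-like receptors are the membrane sensors with which cells of innate immunity recognize conserved molecules of microbes and some molecules released by damaged cells. The receptors described here were chosen by gene symbol: Tlr1, Tlr2, Tlr3, Tlr4, Tlr6, Tlr7, Tlr8, Tlr9, Tlr11 and Tlr13, which are 10 of the 27457 gene symbols in the deposited list and 10 of its 12 Toll-like receptor symbols. Their transcripts were counted from the 5′ end in single cells of 48 tumors of MC38, a mouse colon carcinoma line that arose in C57BL/6 mice. MC38 cells were grown under the skin of female mice 8 to 12 weeks old. Tumors of 75 to 110 mm3 were treated once, through the peritoneum, with 200 µg of a PD-1 blocking antibody (aPD1) or of its isotype control, and were taken 48 h later. Sorted cells were set at 90% CD45+ and 10% CD45-, so leukocytes were enriched and shares of cells are not shares of the tumor.

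Hosts were C57BL/6J mice (B6, 6 tumors) and F1 hybrids of C57BL/6J with 7 strains of the Collaborative Cross (CC), a panel of inbred mice descended from several founder strains. The F1 hybrids are called here by their CC parent: CC001/UncJ (CC001, 8 tumors), CC002/UncJ (CC002, 6), CC007/UncJ (CC007, 4), CC036/UncJ (CC036, 6), CC075/UncJ (CC075, 6), CC079/TauUncJ (CC079, 6) and CC080/TauUncJ (CC080, 6), with equal numbers of isotype and aPD1 tumors in each. The study classed CC001, CC002 and CC075 as responders to aPD1 (20 tumors) and CC036, CC079 and CC080 as non-responders (18 tumors) in its own tumor growth experiments, whereas the sample labels name only strain and treatment. Each F1 host carries 1 set of C57BL/6J chromosomes, and all tumors of a strain share 1 genotype, so a class compares 3 genotypes with 3. Each of 12 pooled libraries held an isotype and an aPD1 tumor of a pair of strains, and hashtag antibodies told the tumors apart. No hashtag was used for both treatments, so hashtag and treatment cannot be told apart.

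Toll-like receptors divide by where they work. Tlr2 pairs with Tlr1 or Tlr6 at the cell surface to bind bacterial lipoproteins, and Tlr4 binds lipopolysaccharide there with its partner protein Ly96. Tlr3 (double-stranded RNA), Tlr7 and Tlr8 (single-stranded RNA), Tlr9 (unmethylated CpG DNA), Tlr13 (bacterial ribosomal RNA) and Tlr11 (profilin of protozoa) work in endosomes, to which the chaperone Unc93b1 carries them. All signal through the adaptor Myd88 except Tlr3, which uses Ticam1, and Tlr4, which uses both. In tumors these receptors are best known from macrophages and dendritic cells, where agonists of Tlr3, Tlr7 and Tlr9 have been used to activate antigen presentation.

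Positions of the genes are given on GRCm38 (GENCODE vM21, 1-based). Tlr1 (chr5:64924679-64933563) and Tlr6 (chr5:64952031-64960097) are neighbors on the minus strand, and so are Tlr8 (chrX:167242696-167264329) and Tlr7 (chrX:167304929-167330558). Tlr13 (chrX:106143204-106160493, plus strand) is the third X-linked member. Tlr2 is at chr3:83836272-83841767 (minus), Tlr4 at chr4:66827584-66930284 (plus), Tlr3 at chr8:45395665-45411080 (minus), Tlr9 at chr9:106222598-106226883 (plus) and Tlr11 at chr14:50357914-50363663 (plus).

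The RefSeq promoter table (GRCm38.p6) held 8 of the 10 members, with 250 bases before and 50 after the annotated start of each entry. Tlr1 and Tlr6 had more than 1 entry, and the start used for Tlr3 lies inside the gene span given above. Promoters are printed for the 3 members on which the results below turn. Tlr3 and Tlr11 are shown because type 1 conventional dendritic cells had their highest levels, and Tlr8 because it was the 1 member called between response classes in macrophages, a marginal call lost in 25 of 32 alternatives. Capitals mark matches, on either strand, to the interferon-stimulated response element (GAAA, any 2 bases, GAAA), an NF-kB element (GGGA, any base, TTTCC) or GAGGAA (a core bound by PU.1), and no 2 of these matches overlap in the sequences shown. They are given 5′ to 3′ on the strand of the gene, at chr8:45410331-45410630 (Tlr3, minus), chr14:50357664-50357963 (Tlr11, plus) and chrX:167264280-167264579 (Tlr8, minus).
Tlr3: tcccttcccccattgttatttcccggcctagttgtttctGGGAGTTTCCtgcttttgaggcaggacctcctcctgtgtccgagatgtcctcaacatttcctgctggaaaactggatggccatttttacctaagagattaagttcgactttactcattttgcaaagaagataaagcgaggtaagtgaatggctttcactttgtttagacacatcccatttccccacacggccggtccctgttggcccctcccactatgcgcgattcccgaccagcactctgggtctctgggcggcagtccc
Tlr11: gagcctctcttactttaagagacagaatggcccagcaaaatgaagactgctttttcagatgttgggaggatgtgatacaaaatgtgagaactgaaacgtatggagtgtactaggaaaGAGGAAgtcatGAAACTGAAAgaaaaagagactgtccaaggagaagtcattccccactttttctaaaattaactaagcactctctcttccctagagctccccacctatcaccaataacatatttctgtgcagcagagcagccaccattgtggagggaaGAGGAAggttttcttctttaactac
Tlr8: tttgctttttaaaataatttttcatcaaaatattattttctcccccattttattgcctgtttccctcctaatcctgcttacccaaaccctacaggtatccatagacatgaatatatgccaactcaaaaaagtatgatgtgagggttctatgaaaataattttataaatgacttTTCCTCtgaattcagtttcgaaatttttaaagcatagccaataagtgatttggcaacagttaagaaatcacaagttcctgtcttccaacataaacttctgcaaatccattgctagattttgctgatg

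The Tlr3 promoter held the NF-kB letters GGGAGTTTCC 211 bases before the start, a motif that 0.411% of 32851 promoters in the table hold. The Tlr11 promoter held GAAACTGAAA 122 bases before the start, a match to the interferon-stimulated response element, which was present in 3.443% of all promoters. The only other member with it was Tlr6, with overlapping matches on the other strand (TTTCTCTTTC and TTTCACTTTC). These were in its entry at chr5:64959117-64959416, inside the gene span, and not in the entry at the end of that span. GAGGAA was present in 28.276% of promoters and in those of Tlr1, Tlr8, Tlr9, Tlr11 and Tlr13. These matches describe letters, and binding was not measured.

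The files held 93126 cells with a median of 3333.5 UMIs, each UMI standing for 1 captured transcript. Cells per tumor ran from 53 to 3082 and UMIs per tumor from 88816 to 17713491. The smallest was the aPD1 tumor of CC007 in pool 6, whose macrophages numbered 30, and 4990 barcode sequences occurred in more than 1 library (10176 cells). The deposited clusters carry numbers, and each was named from marker lists: 10 clusters were monocyte/macrophage (68059 cells, called macrophages below), 8 were T/NK cells (11486), and 1 each cDC1 (type 1 conventional dendritic cells, 1312), cDC2 (type 2, 4981, from 3 of 6 markers), migratory dendritic cells (1524), plasmacytoid dendritic cells (pDC, 458), granulocytic cells (529, with a median of 815 UMIs) and fibroblasts (582). Clusters 12, 20 and 25 (4195 cells) stayed unnamed. Markers of macrophages were also at high levels in the cDC2, granulocytic and pDC clusters, those of cDC1 and cDC2 in the pDC cluster, and those of cDC1 in cluster 19 of the macrophages.

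Which cells carried each receptor was described first, with no test, since the clusters were made from the same counts. Levels are CPM, the UMIs of a gene for every 1000000 UMIs of the same cells, summed over cells, a scale on which a gene can be compared between cell types but not with another gene. Tlr2, Tlr1, Tlr4, Tlr6, Tlr7, Tlr8, Tlr9 and Tlr13 were mainly macrophage transcripts, with 85.916% (Tlr9) to 94.558% (Tlr7) of all their UMIs in macrophages, which held 72.676% of the UMIs of all genes. Tlr3 had 55.530% of its UMIs in macrophages and 30.014% in cDC1, and Tlr11 had 26.845% and 54.198%, while cDC1 held 2.359% of the UMIs of all genes.

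**Figure D1:**
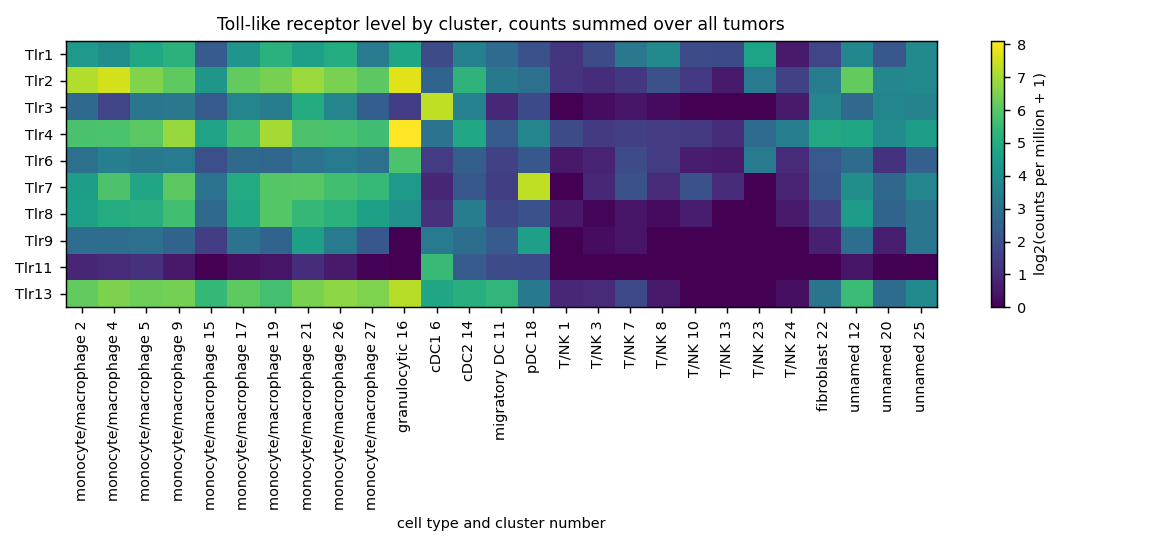
Level of each Toll-like receptor (vertical axis) in each of the 27 deposited clusters (horizontal axis, with the cell type given by marker genes), as log2(CPM + 1) of UMIs summed over all tumors (color). Tlr3 (159.1 CPM) and Tlr11 (43.6 CPM) stand out in cDC1 and Tlr7 (161.5 CPM) in pDC, while granulocytic cells have the highest Tlr4 (275.6 CPM), and T/NK clusters are dark for most receptors.

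Of the surface receptors, Tlr4 was highest in granulocytic cells, at 275.6 CPM against 57.3 in macrophages, 27.8 in cDC2, 7.6 in cDC1 and 4.1 in migratory dendritic cells. Granulocytic cells were few and shallow, with 155 Tlr4 UMIs in all and a range of 104 to 777 CPM over the 7 tumors that had at least 20 such cells. Tlr2 reached 213.4 CPM in granulocytic cells and 108.2 in macrophages, and Tlr6 reached 55.1 (31 UMIs) and 7.9. For Tlr2 the order of the highest clusters depended on the weighting: by the median over tumors, cluster 4 of the macrophages (182.3 CPM) stood above the granulocytic cluster (150.7), whose tumors spread from 28.6 to 661 CPM. Tlr1 had the highest T/NK level relative to macrophages of the 10 members. Its T/NK level of 5.5 CPM was 23.242% of the macrophage level (23.8), and it reached 13.4 CPM in cluster 8, led by the regulatory T cell gene Foxp3, 8.5 in cluster 7 and 24.8 (8 UMIs) in cluster 23. For comparison, T/NK cells held 1.065% of the macrophage level of Tlr13 and 1.608% of that of Tlr2.

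Of the endosomal receptors, Tlr3 was at 159.1 CPM in cDC1, the dendritic cells that cross-present antigen to CD8 T cells, from 1555 UMIs. Over the 27 tumors with at least 20 cDC1 its lowest, median and highest values were 105, 151.5 and 239 CPM, so that even the lowest of these tumors stood above every macrophage value (3.71 to 21.5 CPM over 48 tumors). cDC2 (11.2 CPM), fibroblasts (11.8) and macrophages (9.6) had similar summed levels, and T/NK cells had 0.2256 CPM. Tlr11 was at 43.6 CPM in cDC1 (426 UMIs, range 17.6 to 98.3 over the same tumors), 4.2 in cDC2 and 0.7 in macrophages. It had 0 of 31032972 UMIs in T/NK cells, which allows a level of up to 0.0967 CPM. Tlr13 was more widely spread among myeloid cells, at 151.2 CPM in granulocytic cells, 84.7 in macrophages, 39.3 in migratory dendritic cells, 32.6 in cDC2 and 26.6 in cDC1. In migratory dendritic cells the remaining members were each at or below 8.7 CPM.

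Tlr7 and Tlr9 are the receptors through which pDC make type I interferon. Tlr7 was at 161.5 CPM in pDC (258 UMIs), 37.6 in macrophages, 3.6 in cDC2 and 0.8 in cDC1. Its range over the 6 tumors with at least 20 pDC, 113 to 244 CPM, lay above the range of macrophages (0 to 65.2). Tlr9 was at 23.2 CPM in pDC (37 UMIs), 9.1 in cDC1 and 8.1 in macrophages, and its range in pDC (11.8 to 47.2) overlapped that of macrophages (0 to 15.2). Tlr8 was at 31.1 CPM in macrophages, 16.0 in granulocytic cells and 9.6 in cDC2.

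Within macrophages the receptors did not share 1 order of clusters. Tlr4 was highest in clusters 19 (129.5 CPM) and 9 (115.3), against 48.5 to 64.3 in clusters 2, 4, 5, 17, 21, 26 and 27. The small cluster 15 (293 cells) is left out of that range. Tlr8 also had clusters 19 and 9 at the top, with 61.4 and 49.8 CPM. Cluster 9 is led by Lyve1, Cbr2 and Fcna, and cluster 19 by Lrmda and Dock4, with a median of 1225 UMIs per cell against 3881 in cluster 2. Tlr2 followed another order, with 188.2 CPM in cluster 4, led by Adgre4 and Ace, 143.6 in cluster 2 and 66.9 in cluster 9. Cluster 21, led by the interferon-induced genes Ifit3 and Ifit2, had the highest macrophage levels of Tlr3 (30.5 CPM) and Tlr9 (23.5). The range of Tlr3 in cluster 21 over 45 tumors was 10.5 to 82.2 CPM, which overlapped those of the other clusters (highest single tumors 47.0 in cluster 9 and 46.0 in cluster 19).

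Genes whose levels over the 27 clusters were most like those of each receptor were found among 10955 genes by Pearson's r of log2(CPM + 1), a description over clusters that share libraries. Tlr8 was most like Adgre1 (the gene of the macrophage antigen F4/80), Apobec1 and Msr1, with r = 0.98, 0.97 and 0.96. Tlr2 was most like Gm5150, Slc11a1 and Lst1 (0.98, 0.97 and 0.97), Tlr4 like Gm5150, Rab31 and Sdcbp (0.95, 0.94 and 0.94), and Tlr13 like Pira2, Spi1 and Card9 (0.98, 0.97 and 0.97). Spi1 encodes PU.1. Tlr11 was most like Gpr141b, Gpr33 and Sept3 (0.92, 0.92 and 0.91), Tlr7 like B3gnt8, Zeb2os and Lair1 (0.92, 0.92 and 0.91), and Tlr9 like Cds1, Ppfia4 and Pip4p1 (0.92, 0.92 and 0.91). Likeness was lower for Tlr6 (AI839979, Ccdc180 and Neu1, 0.90, 0.90 and 0.89), Tlr3 (Ccnd1, Naaa and Rab7b, 0.85, 0.85 and 0.83) and Tlr1 (Gbp2b, Rgl2 and Slc43a2, 0.81, 0.81 and 0.80).

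The study varied host genotype, so the next question was whether the receptors differed between strains. Macrophage UMIs were summed per tumor, and edgeR's quasi-likelihood test was fitted to all genes, with a Benjamini-Hochberg adjusted p under 0.05 as a call. Without a term for the pool, 8 of 10 receptors differed among the 8 hosts, where 51.3% of 12510 tested genes were called. The adjusted p values in edgeR were 3.04e-05 for Tlr13, 6.12e-05 for Tlr2, 8.2e-05 for Tlr3, 0.00301 for Tlr8, 0.00325 for Tlr11, 0.00394 for Tlr7, 0.0218 for Tlr4 and 0.031 for Tlr9. Tlr6 (0.0805) and Tlr1 (0.52) did not pass.

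With the pool as a block, which compares strains that shared a library, 2 of 10 receptors passed, where 12.6% of genes were called: Tlr8 (adjusted p = 0.0122 in edgeR) and Tlr6 (0.0244). Tlr2 (0.0528), Tlr3 (0.053) and Tlr11 (0.0536) lay just beyond the threshold, and Tlr13 (0.378), Tlr7 (0.433) and Tlr4 (0.607) were far from it. Strains met in few pools, so the block also widened the errors: the median standard error over 80 contrasts of a receptor in 1 strain against the mean of the others was 0.1295 without and 0.2575 with the pool term, on the log2 scale. Of these 80 contrasts 12 were called without the pool term and 0 with it, where the share of all genes called was 0.0799% in B6, 0.144% in CC001, 0.176% in CC002, 0.024% in CC007, 0.344% in CC036, 1.16% in CC075, 0.12% in CC079 and 0.456% in CC080. The strain differences that follow are given without it, with the blocked value beside each.

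**Figure D2:**
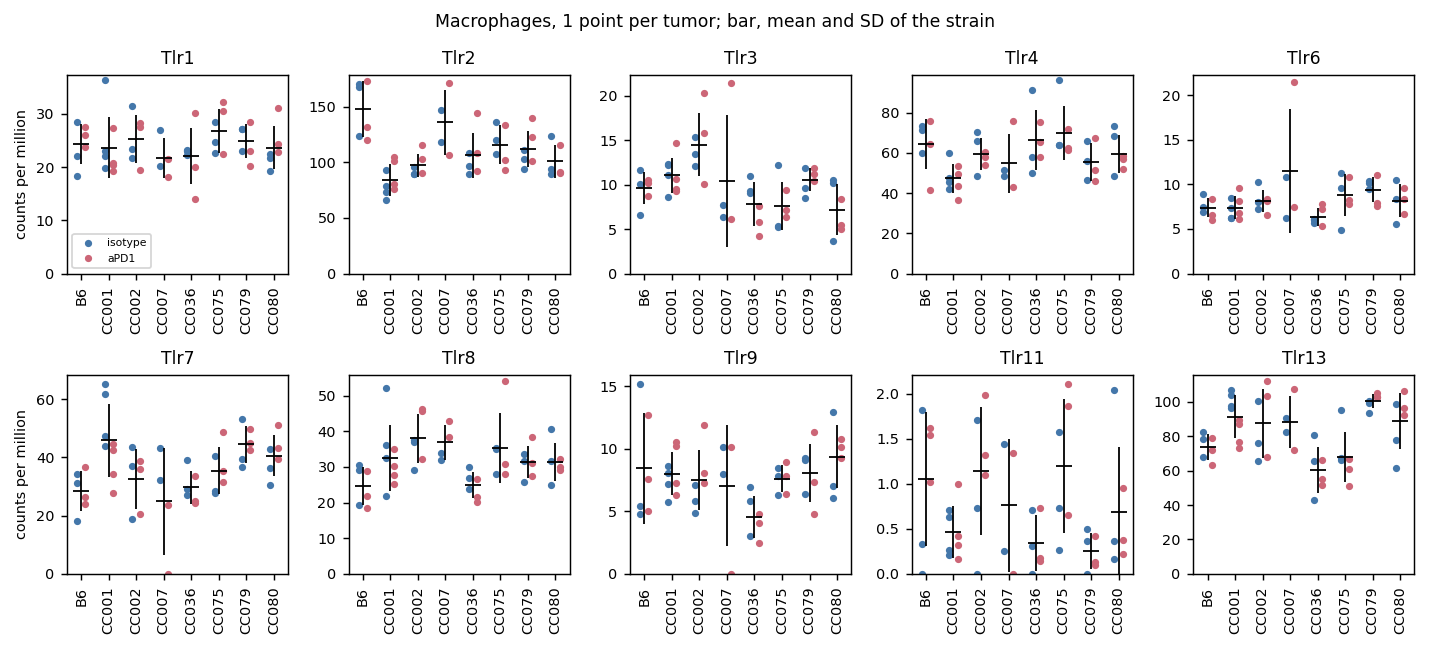
Macrophage level (CPM, vertical axis from 0) of each receptor in each of the 48 tumors by host (horizontal axis), with isotype tumors in blue, aPD1 tumors in red, and the mean and SD of each host in black. Tlr2 is highest in B6 and CC007 and lowest in CC001, Tlr3 is highest in CC002, and Tlr13 is lowest in CC036 and CC075. The aPD1 tumor of CC007 with 21.5 CPM of Tlr3 and Tlr6 had 30 macrophages and 1 UMI of Tlr3.

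Tlr2 ran from 120 to 174 CPM in the 6 B6 tumors (median 150), from 65.8 to 105 in the 8 CC001 tumors (median 79.5), and from 89.2 to 172 in the other hosts. The B6 and CC001 ranges did not overlap. Tlr2 was higher in B6 than in the mean of the other hosts by 0.52 ± 0.10 on the log2 scale (SE, adjusted p = 0.000408 in edgeR, where 5.14% of genes were called), and with the pool term the difference was 0.14 ± 0.24. In CC001 it was lower, with a log2 difference of -0.41 ± 0.09 (adjusted p = 0.00197 in edgeR, 14.3% called; -0.16 ± 0.19 with the pool term). Within pools, B6 had 151.2 CPM against 159.4 for CC007 in pool 6, 121.9 against 112.7 for CC007 in pool 7, and 170.7 against 126.1 for CC036 in pool 8, so it was higher in 2 of its 3 pools. The CC007 value of pool 6 is the plain mean of 2 tumors, 1 of them the aPD1 tumor with 30 macrophages. Within each of the 4 pools that held CC001, its mean Tlr2 lay below that of the strain beside it, for example 77.2 against 121.2 CPM for CC079 in pool 1 and 97.1 against 102.6 for CC002 in pool 12. The CC002 value of pool 12 is also a plain mean of 2 tumors, and its isotype tumor had 248 cells. Cluster 4, where Tlr2 was highest, was 4.3% of CC001 macrophages, 9.1% of B6 macrophages and 6.3% to 16.6% of those of the other hosts, and its part in the difference was not tested.

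CC001 also had lower Tlr4, with a log2 difference of -0.35 ± 0.10 (adjusted p = 0.0123 in edgeR) and a range of 36.7 to 59.9 CPM, and higher Tlr7, by 0.44 ± 0.12 (0.0103) with a range of 27.9 to 65.2 CPM. With the pool term the differences were 0.04 ± 0.22 and 0.04 ± 0.32. Both ranges overlapped that of CC079 (Tlr4 mean of 46.2 CPM in pool 2, Tlr7 up to 53.3). The CC075 tumors, at 61.2 to 95.9 CPM, all lay above the Tlr4 range of CC001.

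Tlr3 was at 10.1, 14.4 and 20.3 CPM (lowest, median and highest) in the 6 CC002 tumors. CC080 tumors had 3.71, 6.89 and 10.5 CPM, and CC075 tumors had 5.25, 6.80 and 12.2 CPM. Of the 6 CC002 tumors 5 lay above the whole range of CC080, and the lowest fell just inside it. The log2 difference of CC002 from the mean of the others was 0.84 ± 0.15 (adjusted p = 0.00013 in edgeR, 4.53% of genes called), and 0.51 ± 0.32 with the pool term. In the 3 pools that held CC002 its mean Tlr3 was above that of the strain beside it, at 15.6 against 7.8 CPM (CC080), 16.8 against 11.5 (CC079) and 11.1 against 8.9 (CC001). The last CC002 value, of pool 12, includes the isotype tumor of 248 cells.

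Tlr13 ran from 43.0 to 80.5 CPM in CC036 (median 60.3) and from 93.6 to 105 in CC079 (median 102), 2 ranges that did not overlap. The log2 difference from the other hosts was -0.52 ± 0.10 in CC036 (adjusted p = 0.000217 in edgeR, 17.2% of genes called), -0.30 ± 0.10 in CC075 (0.0218, 23.6% called) and 0.33 ± 0.09 in CC079 (0.0075, 26.8% called). With the pool term these were -0.47 ± 0.18, -0.35 ± 0.16 and 0.15 ± 0.22. Pool means differed as well: CC002 had 101.9 and 94.1 CPM in pools 3 and 5 but 66.7 in pool 12, where CC001 had 85.2. The CC002 value of pool 12 includes an isotype tumor of only 248 cells. No strain of pools 8 to 11 other than CC080 was also in pools 1 to 5, and CC080 had 95.4 and 91.9 CPM in pools 3 and 4 but 79.1 in pool 11.

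CC036 was also lower in Tlr8 (20.3, 25.3 and 30.0 CPM, log2 difference -0.47 ± 0.13, adjusted p = 0.0115 in edgeR), Tlr9 (2.50, 4.43 and 6.92 CPM, -0.88 ± 0.21, 0.00283) and Tlr6 (5.29, 6.07 and 7.78 CPM, -0.41 ± 0.13, 0.0261). Its blocked differences were -0.28 ± 0.20, -0.48 ± 0.27 and -0.57 ± 0.21. CC079 had 13 UMIs of Tlr11 in all, a log2 difference of -1.63 ± 0.48 (adjusted p = 0.0106 in edgeR), and -1.85 ± 1.10 with the pool term. Tlr11 in macrophages was under 2.2 CPM in each tumor, at or near a few UMIs. No receptor was called in CC007 (1.18% of genes called) or CC080 (2.92%).

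**Figure D3:**
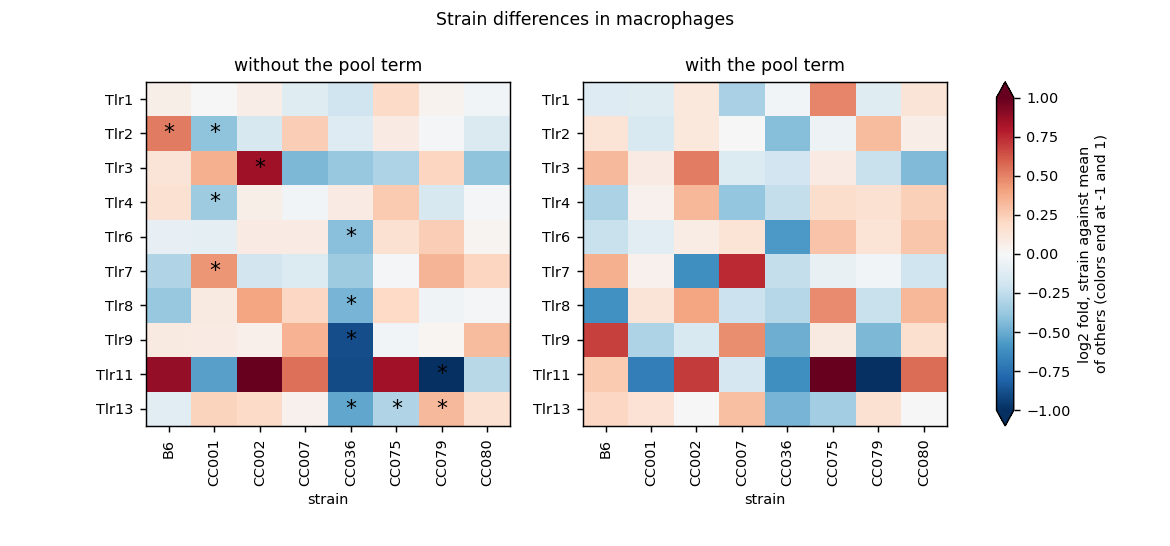
Log2 fold of each receptor (vertical axis) in macrophages of each host (horizontal axis) against the mean of the other hosts, without (left) and with (right) a term for the pool, where colors end at -1 and 1. Asterisks mark adjusted p under 0.05 in edgeR: 12 of 80 without the pool term and 0 of 80 with it, with the CC036 column mostly blue on both sides.

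Whether responder and non-responder strains differ was the study's central comparison. Of the 9 receptors tested (Tlr11 was too low), 1 was called between classes in macrophages, where 6.32% of 11406 genes were called: Tlr8 was higher in responder strains. Responder tumors had 21.9, 33.8 and 54.1 CPM (lowest, median and highest of 20) and non-responder tumors 20.3, 29.5 and 40.6 (of 18). The ranges overlapped nearly throughout, and 4 responder tumors lay above the highest non-responder tumor. Means were 35.0 ± 8.7 CPM (SD, n = 20) and 29.2 ± 5.3 (SD, n = 18), and the log2 difference fitted by edgeR was 0.32 ± 0.10 (SE, adjusted p = 0.0472), a fitted fold of 1.246.

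With the pool as a block the log2 difference of Tlr8 was 0.31 ± 0.10 (adjusted p = 0.0409 in edgeR, where 8% of genes were called). Responder tumors had the higher mean in 7 of the 8 pools that held both classes, the exception being pool 4 (CC001 23.6, CC080 36.4 CPM). By strain means each responder strain (CC001 32.6, CC075 35.3 and CC002 38.01 CPM) lay above each non-responder strain (CC036 24.9, CC079 31.4 and CC080 31.4). The CC001 mean includes a tumor of pool 1 at 52.2 CPM, against 21.9 to 36.2 in its other tumors. In pools 2, 4 and 12 the CC001 means were 35.7, 23.6 and 30.1, so its place above CC079 and CC080 rests on that tumor. The CC075 mean includes a tumor of pool 10 at 54.1 CPM, against 28.0 to 35.4 in its others. CC007, with no class, had 36.9 CPM and B6 24.7.

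The call on Tlr8 was marginal. Leaving out any 1 of pools 1, 2, 3, 5, 8, 9, 10, 11 or 12 raised its adjusted p to between 0.0529 and 0.157, while the log2 difference stayed between 0.2551 and 0.347. Without CC036 it was 0.202 (adjusted p = 0.26 in edgeR) and without CC002 0.2503 (0.196). With counts summed to 1 sample per strain, 3 against 3, it was 0.3571 (adjusted p = 0.942 in edgeR, where 3 of 14571 genes were called). The 2 macrophage clusters of highest Tlr8, 9 and 19, made up 6.0% of responder and 7.2% of non-responder macrophages, and cluster 26 (36.0 CPM of Tlr8) 28.3% and 22.2%. The part of these shares in the difference was not tested.

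Tlr3 came next. Its means were 11.1 ± 3.8 CPM (SD, n = 20) in responder and 8.5 ± 2.6 (SD, n = 18) in non-responder strains, with overlapping ranges of 5.25 to 20.3 and 3.71 to 11.9 CPM. The log2 difference of 0.43 ± 0.16 did not pass (adjusted p = 0.0982 in edgeR), and with the pool term it did (0.44 ± 0.12, adjusted p = 0.021 in edgeR), which made 2 of 9 receptors called. The share of all genes called in the fit with the pool term is given above with Tlr8. CC002 carried much of it: CC075, also a responder, had 7.6 CPM, close to CC080 with 7.2, and without CC002 the log2 difference was 0.2258 (adjusted p = 0.482 in edgeR). The other 7 receptors tested had log2 differences of -0.07 (Tlr2) to 0.12 (Tlr1 and Tlr9), with adjusted p of at least 0.435 in edgeR.

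**Figure D4:**
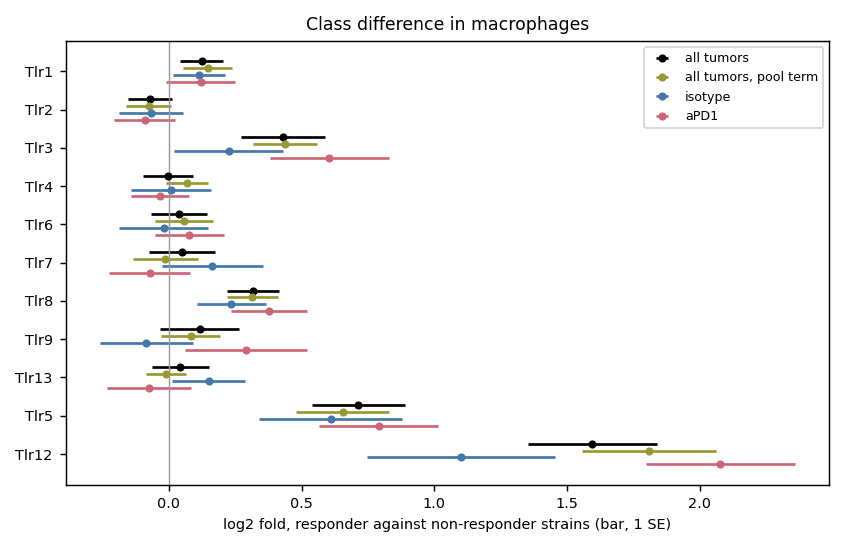
Log2 fold in macrophages of responder against non-responder strains (horizontal axis, with bars of 1 SE) for 9 receptors and for Tlr5 and Tlr12 (vertical axis), in all 38 classed tumors without and with the pool term, and within isotype and aPD1 tumors alone. Tlr8 and Tlr3 lie to the right of 0 in each fit, Tlr12 lies farthest right, and the other 7 receptors lie between -0.09 and 0.16 in each fit except Tlr9 within aPD1 tumors (0.29 ± 0.23).

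Within isotype tumors alone no receptor was called (0.187% of 11255 genes called), with log2 differences of 0.23 ± 0.13 for Tlr8 and 0.23 ± 0.21 for Tlr3. Within aPD1 tumors none was called either (6.31% of 11363 genes), with 0.38 ± 0.14 for Tlr8 (adjusted p = 0.122 in edgeR) and 0.61 ± 0.22 for Tlr3 (0.115). 

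The other receptors of the family, Tlr12 and Tlr5, were also called between classes. Tlr12, a partner of Tlr11, averaged 8.4 ± 3.0 CPM in responder and 3.1 ± 2.3 in non-responder macrophages (SD, n = 20 and 18), a log2 difference of 1.60 ± 0.24 (adjusted p = 3.03e-05 in edgeR; 1.81 ± 0.25 with the pool term). Tlr5, the flagellin receptor, averaged 4.5 ± 2.6 and 2.6 ± 1.0 CPM (0.71 ± 0.18, adjusted p = 0.00917 in edgeR; 0.66 ± 0.18 with the pool term). Within isotype tumors alone the log2 differences were 1.10 for Tlr12 and 0.61 for Tlr5, and within aPD1 tumors 2.08 and 0.79. These are effect sizes only, and whether either gene was called within a treatment is not given here. Both were higher in responders in 8 of 8 pools with both classes. For Tlr5 the gap was slight in pool 1 (CC001 3.74, CC079 3.69 CPM) and in pool 5 (CC002 3.91, CC079 3.81 CPM). The call on Tlr5 was lost in 4 of 26 alternatives: in pools 1 to 5 alone (adjusted p = 0.352 in edgeR), without CC036 (0.0517), without CC080 (0.0538) and with counts summed per strain (0.753). That on Tlr12 was lost in 1 of 27, with counts summed per strain (0.203). Among hosts, Tlr12 was lowest in CC079 (2.1 CPM) and highest in CC002 (9.5).

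Treatment was then compared within strains. After aPD1 no receptor was called in macrophages: 0 of 12510 genes were called (0%), with 373 at an unadjusted p under 0.05, and none of the receptors among these. Log2 differences of aPD1 from isotype ranged from -0.06 ± 0.09 (Tlr7) to 0.32 ± 0.29 (Tlr11). For the 8 receptors other than Tlr9 and Tlr11 the standard errors were 0.06 to 0.10 on the log2 scale. For Tlr8 the levels were 19.4, 31.6 and 52.2 CPM in 24 isotype tumors and 18.4, 30.0 and 54.1 in 24 aPD1 tumors, and for Tlr2 65.8, 99.7 and 171 against 76.1, 106 and 174. DESeq2 also called 0 receptors, and 0 of 12510 genes.

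Within responder strains 0 of 11646 genes were called after aPD1 (0%; 1478 at an unadjusted p under 0.05), and the receptors ranged from -0.14 ± 0.10 (Tlr13) to 0.28 ± 0.13 (Tlr9, adjusted p = 0.398 in edgeR). Within non-responder strains 0 of 11775 were called (0%; 168 unadjusted), with Tlr3 lowest at -0.26 ± 0.18. The difference between these effects, tested as an interaction, was called for 1 of 12157 genes (0.00823%) and for no receptor, and the lowest adjusted p among receptors was 0.513 in edgeR, for Tlr9.

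Dendritic cells were tested in the same way where tumors had at least 10 cells of the type. In cDC1 (39 tumors), Tlr3 had 89.8, 161 and 239 CPM and did not pass between hosts (adjusted p = 0.373 in edgeR, where 3.71% of genes were called) or classes (log2 difference -0.10 ± 0.14, adjusted p = 0.901 in edgeR, 0.619% called). Responder tumors had 97.6, 140 and 229 CPM and non-responder tumors 89.8, 160 and 239. Tlr11 in cDC1 had 23.2, 53.1 and 98.3 CPM in 16 responder tumors and 0, 25.1 and 81.6 in 16 non-responder tumors. Its log2 difference of 0.76 ± 0.25 did not pass (adjusted p = 0.187 in edgeR), nor with the pool term (0.77 ± 0.22, adjusted p = 0.0827 in edgeR, 0.588% called).

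In cDC2 (47 tumors) 3 of 7 tested receptors differed among hosts, where 11.6% of genes were called: Tlr3 (adjusted p = 0.00381 in edgeR), Tlr8 (0.00988) and Tlr13 (0.0154). With the pool term 0 of 7 passed (2.59% of genes called), with 0.352, 0.937 and 0.998 for the same receptors. Tlr3 in cDC2 had 8.21, 21.4 and 33.7 CPM in the 6 CC002 tumors and 0, 0 and 5.41 in the 6 CC075 tumors (4 UMIs in all), so these ranges did not overlap. Against the other hosts CC002 was at 1.36 ± 0.32 on the log2 scale (adjusted p = 0.0153 in edgeR, 1.05% of genes called) and CC075 at -2.62 ± 0.65 (0.0184, 2.04% called). With the pool term these differences were 0.15 ± 1.71 and -2.55 ± 0.96. In macrophages, too, CC002 had the highest mean of Tlr3 and CC075 a low one. In cDC1 CC075 had the lowest mean of the 8 hosts (120 ± 21.0 CPM, SD, n = 5), and CC002 (163 ± 49.5, SD, n = 5) lay below CC007 (196), B6 (189) and CC080 (177). Tlr13 in cDC2 was lower in CC036 (-0.77 ± 0.22, adjusted p = 0.0398 in edgeR, 2.3% called), as it was in macrophages, and Tlr8 was higher in CC001 (0.86 ± 0.25, 0.0498, 1.87% called). Their blocked values were 0.02 ± 0.46 and 0.95 ± 0.68. Markers of macrophages were also high in the cDC2 cluster, and the part of macrophage RNA in the cDC2 values was not tested. Between classes 0 of 3 tested receptors passed in cDC2 (0.602% called; 1.11% with the pool term). In cDC1, Tlr13 was higher in CC080 (0.93 ± 0.24, adjusted p = 0.0447 in edgeR, 0.556% called), at 27.7, 41.3 and 60.4 CPM, and with the pool term the difference was 0.84 ± 0.68. No other receptor was called in 1 host against the others in cDC1, where the share of genes called ran from 0.0199% (B6) to 1.33% (CC079) and 1.57% (CC075). Over all hosts Tlr13 in cDC1 had an adjusted p of 0.064 in edgeR, which became 0.0281 with at least 20 cells per tumor (2.84% of genes called) and 0.924 with the pool term (1.19% called). After aPD1 0 of 3 tested receptors were called in cDC1 and 0 of 7 in cDC2 (0% of genes called in both).

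**Figure D5:**
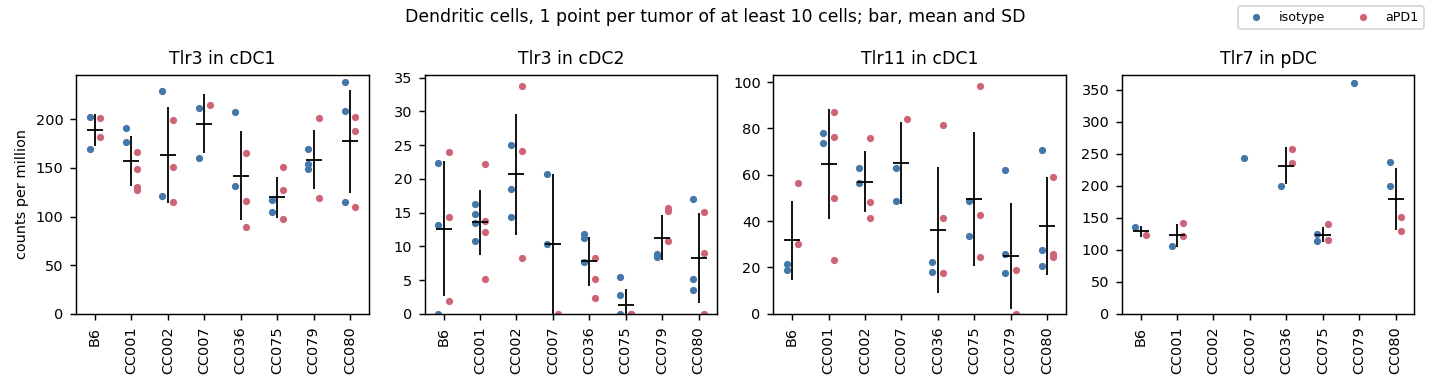
Level (CPM, vertical axis from 0) of Tlr3 in cDC1 and cDC2, of Tlr11 in cDC1 and of Tlr7 in pDC, with 1 point per tumor of at least 10 cells by host (horizontal axis), isotype in blue and aPD1 in red, and the mean and SD of each host in black. Tlr3 in cDC2 is at or near 0 in CC075 and highest in CC002, while in cDC1 Tlr3 runs from 97.6 to 151 CPM in CC075, below the ranges of B6 (170 to 203) and CC007 (161 to 215); Tlr7 in pDC is 105 to 141 CPM in CC001 and CC075 and 130 to 361 in CC036, CC079 and CC080.

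In pDC, Tlr7 was too low for the filter of the class test, and the comparison that follows was chosen after its values were seen. The 7 responder tumors with at least 10 pDC had 105, 121 and 141 CPM, and the 8 non-responder tumors 130, 218 and 361 (lowest, median and highest). Only 2 responder tumors (141 CPM in CC001 and 140 CPM in CC075) lay above the lowest non-responder tumor (130 CPM in CC080). The mean log2 difference was -0.789, a description of tumors from CC001 and CC075 on the responder side, and the responder mean was lower in 4 of 4 pools with both classes. Each tumor rested on 4 to 20 Tlr7 UMIs from 10 to 44 cells. In edgeR without a filter, where 0.126% of 13515 genes were called, the log2 difference was -0.70 ± 0.30 (adjusted p = 0.797), and with the pool term -0.68 ± 0.37 (adjusted p = 1). In T/NK cells and fibroblasts no receptor passed the filter on low counts, and of the 1 or 2 receptors that did in granulocytic cells, migratory dendritic cells and pDC none was called by host or treatment. The share of genes called among hosts was 9.23% in migratory dendritic cells, where Tlr13 was tested, 0.245% in granulocytic cells (Tlr2 and Tlr4) and 0.818% in pDC (Tlr7). After aPD1 it was 0% in each. By class no receptor passed the filter there.

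The other genes of the pathway were followed with a list of 59, from accessory proteins to induced cytokines. In macrophages 5 of the 50 tested differed between classes, 4 higher and 1 lower in responders, against 6.32% of all genes, and the median log2 difference of the list was 0.0707 against -0.0042 over all genes. These calls take tumors as replicates, while a class compares 3 genotypes with 3. Fits with counts summed per strain are not given for these genes. Ly86, the partner of the Tlr4-like receptor Cd180, averaged 466 ± 65 CPM in responder and 363 ± 68 in non-responder strains (SD, n = 20 and 18; log2 difference 0.41 ± 0.08, adjusted p = 0.00114 in edgeR). Unc93b1, the chaperone of endosomal receptors, was higher by 0.25 ± 0.07 (0.0178), and Cnpy3, which helps receptors fold, by 0.17 ± 0.05 (0.0241).

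The other called genes were Ccl5, a chemokine induced by receptor signaling, and Vcan, a matrix proteoglycan that Tlr2 can bind. Ccl5 had 93.1, 352 and 2494 CPM in responder and 95.6, 192 and 642 CPM in non-responder tumors (log2 difference 1.29 ± 0.38, adjusted p = 0.0315 in edgeR), and Vcan was lower in responders (-0.96 ± 0.29, 0.0368). Doublets and free RNA were not removed here, and the part of RNA from other cells in the Ccl5 difference was not tested. Cluster 4, which has Vcan among its leading genes, was 5.6% of responder and 8.1% of non-responder macrophages, and its part in the lower Vcan was not tested. With the pool term 5 of 50 passed as well, against 8% of all genes: Ly86, Unc93b1 and Vcan again, and in place of Cnpy3 and Ccl5 the kinase Tbk1 (0.23 ± 0.06, adjusted p = 0.0144 in edgeR) and the deubiquitinase Cyld (0.20 ± 0.06, 0.0498). Within isotype tumors 0 of 49 passed, against 0.187% of all genes, and Ccl5 was at 0.31 ± 0.47. Within aPD1 tumors 5 of 50 did, against 6.31%: Ccl5 (2.28 ± 0.42), Ly86 (0.48 ± 0.09) and Unc93b1 (0.35 ± 0.08) higher, and Vcan (-1.19 ± 0.32) and the chaperonin Hspd1 (-0.43 ± 0.12) lower.

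Among hosts 30 of 54 tested pathway genes differed, against 51.3% of all genes, and those of smallest p were Tbk1, Irak2, Slc15a3, Nfkb1, Traf3, Chuk, Ikbke and Cyld. With the pool term 3 of 54 did, against 12.6%: the fatty acid receptor Cd36 (adjusted p = 0.00163 in edgeR), Ly86 (0.00665) and Tbk1 (0.0376). After aPD1 0 of 54 were called, and no gene outside the list was either. An interaction with class was called for 0 of 53, beside the share of all genes given above with the receptors. By treatment the 5 tested endogenous ligands had a median log2 difference of -0.2844 and the 10 tested induced products one of 0.2676, against -0.0046 over all genes, with none of these genes called. The ligand median is the value of S100a8, whose SE was 0.3793, so no direction is read from it. Induced products ran from -1.14 ± 0.50 (Il12b) to 0.69 ± 0.37 (Nos2), and no direction is read from their median either. Single genes of the other lists ran from -0.13 (Tab1) to 0.21 (Tnfaip3), and medians of those lists are not shown.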

How the data were processed

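The members and gene lists were chosen with earlier results of these data known. Single-cell RNA sequencing of 48 tumors in 12 pooled libraries was analysed. The authors deposited raw UMI counts per gene and cell, with the library, strain, treatment, hashtag and cluster number of each cell. They aligned reads with Cell Ranger to GRCm38 (10x Genomics mm10 reference), which carries C57BL/6J sequence for all hosts, removed cells of high mitochondrial or ribosomal share, and clustered cells in Seurat 5.0.1. Removal of doublets or free RNA is not given in the sources used here, and none was done. All 150064855 entries were whole numbers. Depth was 88816 to 17713491 UMIs per tumor, and limits on counts of 0 (3 counts) cover counting error only.

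A marker list was met where at least 3 markers and 50% of the list reached 100 CPM. A cluster that met several lists (14, 16, 18 and 19) took the name of the list highest relative to the mean of all clusters. It stayed unnamed where it met no list (20), both the macrophage and the T/NK list (12), or had more markers of another list among its top 10 genes (25). Counts were summed per tumor and cell type (at least 10 cells) and tested with edgeR 4.0.16 (TMM, filterByExpr, robust quasi-likelihood) in R 4.3.3, with Benjamini-Hochberg adjustment over all genes tested and a threshold of 0.05. Class and strain models had treatment as covariate, the treatment model strain, and the interaction model both. The tumor was the replicate. A pair of CC080 tumors shares 1 animal identifier. All 10 receptors, Tlr5, Tlr12 and, of 59 pathway genes, the called ones (at most 8 per comparison) were to be named. Scripts were tested on simulated data.

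Tumors of a pool share a library, which pairs them. Deviations from strain and treatment means over 11318 genes had a median r of 0.1625 in 48 pairs of 1 pool and -0.0142 between pools, with pool means of 0.0042 to 0.3412 (5 of 12 over 0.1). Alternatives were library-size scaling, DESeq2 1.42.0, no filter, the pool block, subsets of tumors, pools, strains and clusters, all cells, and a 20-cell minimum. The pool block outside macrophages and the unfiltered pDC fit were added after seeing the data.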

Additional observations from a re-analysis of the deposited data

Results flagged for a closer look

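Each receptor was screened in the macrophages of each strain for a tumor that stood apart from the rest of its strain by Dixon's test, in 80 groups of 4 to 8 tumors, of which chance would be expected to mark about 1 in 20. It marked 6. In CC001, the isotype tumor of pool 1 had 52.225 CPM of Tlr8 (others 21.9 to 36.2) and 36.303 CPM of Tlr1 (others 19.2 to 27.3). In CC075, the aPD1 tumor of pool 10 had 54.083 CPM of Tlr8 (others 28.0 to 35.4), and the isotype tumor of that pool 95.908 CPM of Tlr4 (others 61.2 to 71.6). The aPD1 tumor of CC036 in pool 8 had 144.163 CPM of Tlr2 (others 89.3 to 108.8). The aPD1 tumor of CC007 in pool 6 had 21.48 CPM of Tlr3 (others 6.16 to 7.72), from 1 UMI in 30 macrophages.

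Both high Tlr8 tumors belong to responder strains. Without pool 1 the class difference of Tlr8 was 0.3074 on the log2 scale (adjusted p = 0.0823 in edgeR), and without pool 10 it was 0.2551 (0.157).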

How the results depend on the processing

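Receptors called between classes in macrophages numbered 1. The shares of all genes called in the main fit and with the pool block are given above with Tlr8. The count was 2 with the pool as replicate block, and 0 with library size alone (809 of 11406 genes called), with no filter (727 of 24997), without the tumors sharing an animal identifier (724 of 11411), in pools 1 to 5 alone, in all cells, without CC002 (588 of 11482) or CC036 (713 of 11461), in each of clusters 2, 4, 5, 17, 19, 21, 26 and 27 alone, and with counts summed per strain, where the smaller number of samples enters by construction. Leaving out 1 pool at a time gave 0 to 1, with 433 (without pool 2) to 744 genes called against 721. DESeq2, with 942 genes called, gave 1. Without CC075 or CC079 the called receptor was Tlr3 (adjusted p = 0.0103 and 0.0366 in edgeR) and not Tlr8. The difference of Tlr8 kept its direction in 32 of 32 alternatives (0.1566 to 0.4668 on the log2 scale) and lost its call in 25. Genes called were 228 in pools 1 to 5, 345 in pools 8 to 12, 385 in all cells, 695 in cluster 26 alone and 9 to 318 in each of the other clusters alone. Among hosts 8 receptors were called. The count was 2 with the pool block (1581 genes against 6412), 2 in pools 1 to 5 (1294 genes), 0 in pools 8 to 12 (682 genes), 5 of 9 tested in clusters 5 and 26 (2169 of 9183 and 3489 of 10729 genes), and 1 in each of clusters 4 (940 of 5516), 17 (592 of 8666), 19 (164 of 4051), 21 (1014 of 6523) and 27 (1129 of 6068), where 5 to 8 receptors were tested. It was 6 to 9 without 1 pool, where the share of all genes called is not given here. Receptors called after aPD1 were 0 in all 29 alternatives, the pool block included, which changed no other call than those given. In cDC1 1 receptor (Tlr13, adjusted p = 0.0281 in edgeR) was called among hosts with a 20-cell minimum, and in cDC2 0 against 3 with the pool block. By the median over tumors, the highest cluster had 59.1349 CPM for Tlr1 (cluster 23, 1 tumor; 36.1928 by summed counts in cluster 9) and 182.2618 for Tlr2. Apart from these constructions, the cause of each change was not tested. Depth limits Tlr11 in macrophages (211 UMIs) and all receptors in pDC and granulocytic cells.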
